A study of Caenorhabditis elegans with 12 samples.

Results

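The genes described here are 10 transcription factors of *C. elegans* that are known from work on lifespan and stress resistance: *daf-16*, *skn-1*, *hsf-1*, *pqm-1*, *pha-4*, *hif-1*, *atfs-1*, *xbp-1*, *daf-12* and *zip-2*. They were chosen by name, and each was found in the files by matching its isoforms to the WBcel235 gene annotation through the sequence name. The files held 32905 isoforms of 21749 annotated genes, and 307 isoforms had no gene in the annotation. All 10 genes passed the filter on low counts and were among the 14574 genes tested.

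Polyadenylated RNA of whole adult worms, grown on OP50 bacteria at 20°, was sequenced. Wild-type worms (strain N2) were compared with *fog-2(lf)* worms (strain JK574, allele q71), whose germline makes no sperm in the XX animal, so that it lives as a female. Both genotypes were collected as first-day and as sixth-day adults, which makes 4 groups of 3 libraries and 12 in all. The study's methods call the 3 libraries of a group biological replicates, each from a population of worms, and the *fog-2(lf)* arm is 1 strain with 1 allele.

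These factors work as sensors and switches. DAF-16 is the forkhead protein that enters the nucleus when insulin-like signaling is low, and PQM-1 is a zinc finger protein that leaves the nucleus when DAF-16 enters it. SKN-1 raises detoxification genes, HSF-1 raises cytosolic chaperones, ATFS-1 and XBP-1 act in the unfolded protein responses of mitochondria and endoplasmic reticulum, and HIF-1 acts at low oxygen. DAF-12 is a nuclear receptor for bile-acid-like steroids, PHA-4 is the FoxA protein that specifies the pharynx and is needed for the long life of diet-restricted worms, and ZIP-2 is a bZIP protein of the response to pathogens that block translation. Several of them are regulated chiefly through their protein, its stability or its place in the cell, which RNA levels do not show.

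The libraries held between 21162593 and 38775999 estimated counts. The level of *fog-2* fitted the labels: it was 44.5 to 58.5 CPM (counts scaled by library size and TMM factors) in the wild-type libraries and 3.20 to 4.86 in the *fog-2(lf)* libraries. In first-day wild type the 10 most abundant genes took 9.66% to 17.5% of a library's counts, against 3.97% to 8.63% elsewhere, and TMM factors ran from 0.821 to 1.17. Library 2 of first-day wild type stood apart from the other 2 of its group on the second principal component (-3.22 against 51.24 and 61.45), and values without it are given where it matters. The 38 sperm markers, of which 21 passed the filter, summed to 6.87 to 268 CPM in first-day wild type and 4.90 to 25.5 CPM elsewhere. The lowest first-day wild-type library thus lay within the range of the other groups. In whole animals, fewer cells of a type and less RNA per cell cannot be told apart.

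Compared per length, in TPM, *xbp-1* had the highest level of the 10 in every group, from 160 ± 16 (SD, n = 3) in first-day *fog-2(lf)* to 243 ± 15 in sixth-day wild type. In wild type *zip-2* came next, with a TPM of 102 ± 15.5 on the first day and 121 ± 5.42 on the sixth, and no library of *zip-2* overlapped one of *xbp-1* or of *skn-1*, the next below. On the first day of wild type the libraries of *skn-1*, *daf-16*, *atfs-1*, *pqm-1*, *hsf-1* and *hif-1* overlapped from each to the next, between mean TPM values of 58.6 and 36.7. *daf-12* and *pha-4* were lowest in every group: on the first day of wild type their TPM was 2.98 ± 0.456 and 1.02 ± 0.209. In sixth-day *fog-2(lf)* *zip-2* stood at a TPM of 53.4 ± 10.8, within the libraries of *hsf-1*, so its place in the order moved from the second to the sixth.

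**Figure D1:**
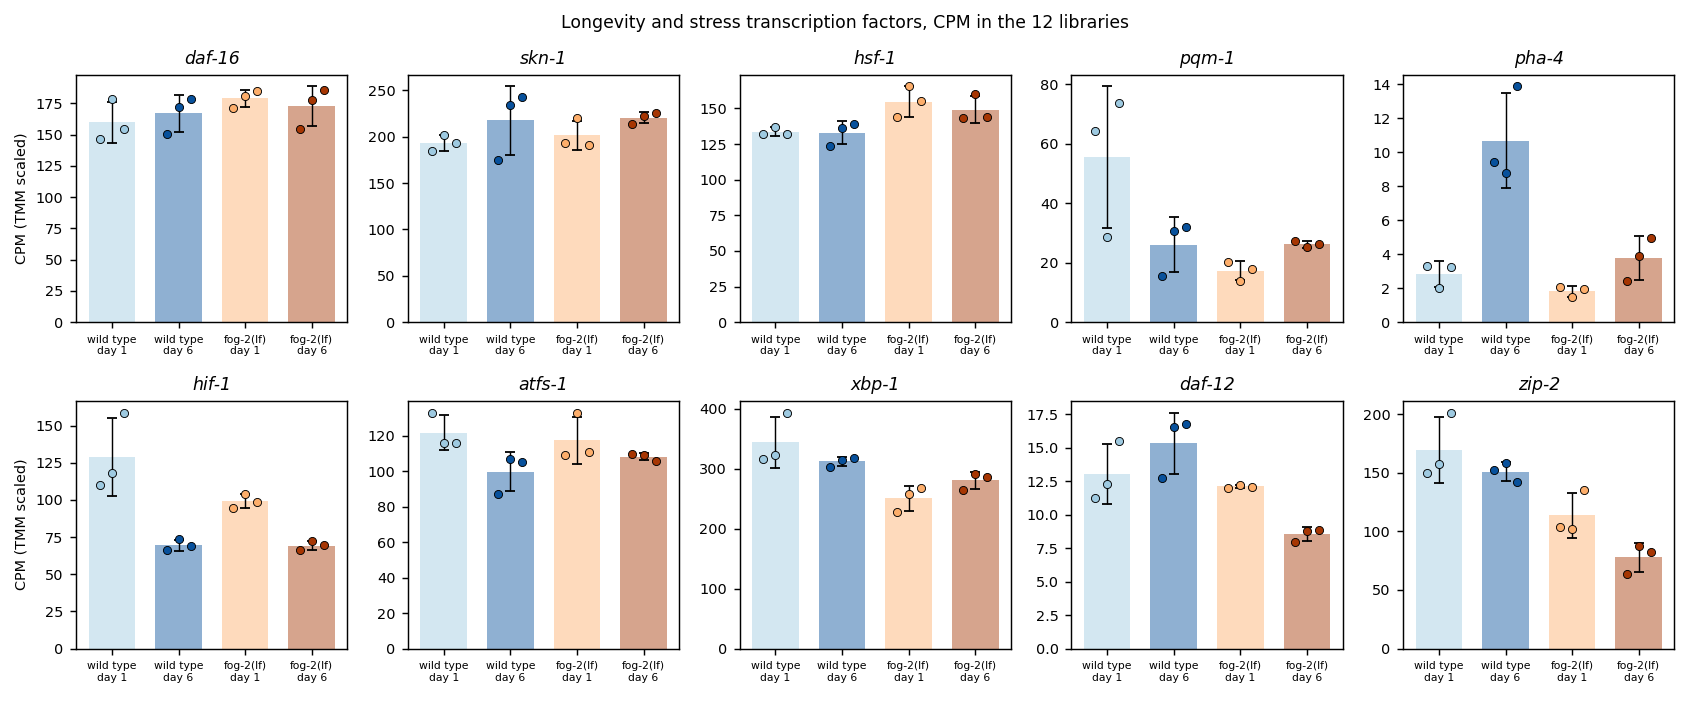
CPM (TMM scaled, linear axis from 0) of each of the 10 transcription factors in the 12 libraries. Points are libraries, bars are means of the 3 libraries of a group and error bars are 1 SD. The panels of *pha-4*, *pqm-1*, *zip-2*, *hif-1* and *daf-12* show group means that differ most, with highest over lowest mean of 5.88, 3.21, 2.19, 1.86 and 1.80, while those of *daf-16* and *skn-1* differ by 1.12 and 1.15.

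A gene was called at an adjusted p under 0.1, the threshold of the study, with p-values adjusted over all 14574 genes. From the first to the sixth day of wild type, 1 of the 10 factors rose (*pha-4*) and 3 fell (*pqm-1*, *hif-1*, *atfs-1*), where 23.4% of all genes tested rose and 25.4% fell. That split depended on the scaling: with library totals in place of TMM factors 6 rose and 2 fell, and with limma on log2(TPM + 0.5) 6 rose and 1 fell. From the first to the sixth day of *fog-2(lf)*, 1 rose (*pha-4*) and 3 fell (*hif-1*, *daf-12*, *zip-2*), against 18.1% and 21.1% of all genes, and with library totals 3 rose and 3 fell. Between genotypes on the first day, 1 factor was higher in *fog-2(lf)* (*hsf-1*, 7.74% of all genes) and 4 were lower (*pqm-1*, *hif-1*, *xbp-1*, *zip-2*, against 10.6% of all genes). On the sixth day 0 were called higher by edgeR (1 at an unadjusted p under 0.05, *hsf-1*), where 9.85% of all genes were, and 3 were lower (*pha-4*, *daf-12*, *zip-2*), where 10.5% were. The change with age differed between genotypes for 2 factors, *pqm-1* in the higher direction (7.36% of all genes) and *daf-12* in the lower (7.90%).

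*daf-16* and *skn-1* were called in none of the 6 comparisons with TMM factors. In wild type the comparison with age and the comparison of genotypes on the first day share the first-day wild-type libraries, so a value that stands out there enters both. Sixth-day wild type was also set against first-day *fog-2(lf)*, the pair of states without self-sperm for different reasons. There 3 factors were higher (*pha-4*, *xbp-1*, *zip-2*) and 3 lower (*hsf-1*, *hif-1*, *atfs-1*) in sixth-day wild type, against 21.7% and 22.6% of all genes. With library totals 6 were higher and 1 was lower, and with limma on log2(TPM + 0.5) 6 were higher and 0 lower. The *atfs-1* call (log2 -0.24, adjusted p = 0.087) was lost with DESeq2, with RLE factors, when only the libraries compared were fitted and without 7 of the 12 libraries in turn, and under library totals and limma on TPM its sign turned, as did that of *hsf-1*. The *hif-1* call was lost with limma on TPM. That of *zip-2* was lost without library 1 or 2 of sixth-day wild type or of first-day *fog-2(lf)*. *daf-12* was not called (log2 0.34, adjusted p = 0.11), although its groups did not overlap. It was called higher with DESeq2, RLE factors, library totals, limma on TPM, only the libraries compared and the replicate block.

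**Figure D2:**
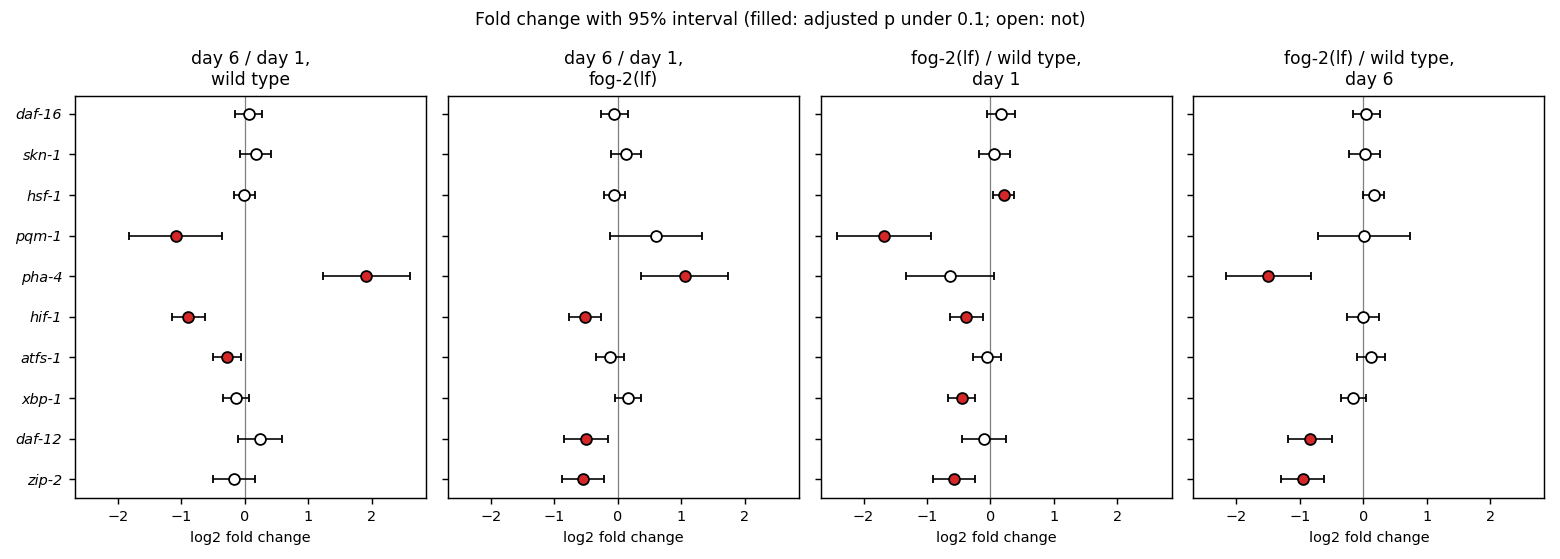
Log2 fold change of each factor in the 2 comparisons with age and the 2 between genotypes, with its 95% interval from edgeR. Filled points passed an adjusted p of 0.1 and open points did not. *pha-4* is to the right of 0 in both comparisons with age (1.92 and 1.06) and *hif-1* to the left in both (-0.89 and -0.52), and *daf-16* and *skn-1* lie near 0 throughout.

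The scale of the comparison with age in wild type depends on how the libraries are made comparable. With library totals alone, in place of TMM factors, the median over all genes moved from -0.00 to 0.42 on the log2 scale and the share of higher genes among those called moved from 48% to 81%, so each change below is stated relative to the bulk of genes. Under library totals *hsf-1*, *xbp-1*, *atfs-1* and *zip-2* turned to the other sign in this comparison (0.41, 0.29, 0.13 and 0.26). Among these, *hsf-1* and *xbp-1* were called higher (adjusted p = 0.0015 and 0.013). *daf-16*, *skn-1* and *daf-12* kept their sign but were called higher (0.48, 0.59 and 0.66, adjusted p = 0.0026, 0.0012 and 0.0031). *pha-4*, *hif-1* and *pqm-1* kept both direction and call, but the falls of *hif-1* (-0.46, adjusted p = 0.0029) and *pqm-1* (-0.66, adjusted p = 0.090) were smaller. With limma on TPM *hif-1* was at -0.41 (adjusted p = 0.028) and *pqm-1* was not called (-0.64, adjusted p = 0.12). For the genotypes on the first day, the same step moved the median of all genes from -0.01 to 0.14 and the share of higher calls from 42.2% to 70.4%. The medians moved to 0.10 for age in *fog-2(lf)*, -0.17 for genotype on the sixth day, -0.26 for the difference between the changes with age and 0.29 for sixth-day wild type against first-day *fog-2(lf)*. Higher calls there went from 46.1% to 62.1%, from 48.5% to 16%, from 48.2% to 12.9% and from 48.9% to 77.2%.

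**Figure D3:**
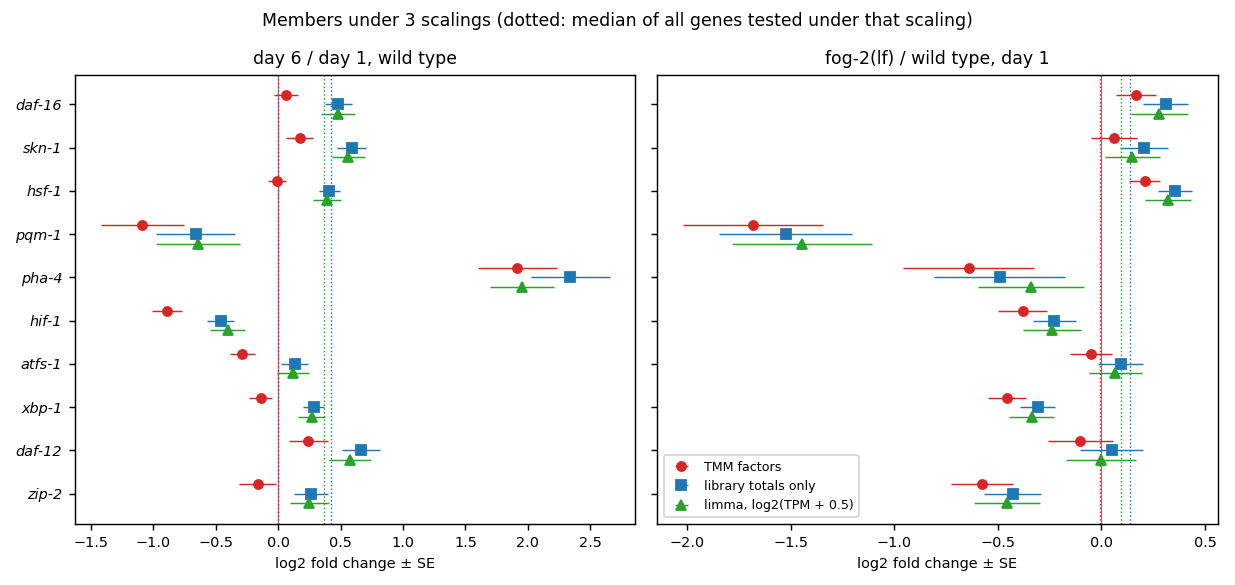
Log2 fold change ± SE of the 10 factors with TMM factors, with library totals only, and with limma on log2(TPM + 0.5), for age in wild type (left) and for genotype on the first day (right); dotted lines are the medians of all genes tested under each scaling. In the left panel the values with library totals and with TPM lie to the right of the TMM values, least so for *pha-4* with TPM (1.95 against 1.92). There *pha-4*, *hif-1* and *pqm-1* stay on their side of 0, while *hsf-1*, *xbp-1*, *atfs-1* and *zip-2* cross it.

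*daf-16* (R13H8.1, WBcel235 chromosome I, 10750498 to 10776703, plus strand) and *skn-1* (T19E7.2, chromosome IV, 5651039 to 5660384, minus strand) are the most studied of these genes. *daf-16* had 146, 178 and 155 CPM in first-day wild type, 150, 172 and 179 in sixth-day wild type, 172, 181 and 185 in first-day *fog-2(lf)* and 155, 178 and 185 in sixth-day *fog-2(lf)*. The 4 groups overlapped, and the log2 fold change with age was 0.06 in wild type (95% interval -0.15 to 0.28, adjusted p = 0.64) and -0.05 for *fog-2(lf)* (-0.27 to 0.16, adjusted p = 0.71). Without library 2 of first-day wild type *daf-16* was called higher in first-day *fog-2(lf)* (log2 0.25, adjusted p = 0.096), where the reported value was 0.17 (adjusted p = 0.29). With library totals *daf-16* was called higher there too (0.31, adjusted p = 0.072). The difference between its changes with age was also called with library totals (-0.40, adjusted p = 0.098). *skn-1* had 185, 202 and 193 CPM in first-day wild type, 175, 234 and 243 in sixth-day wild type, 193, 220 and 191 in first-day *fog-2(lf)* and 214, 222 and 226 in sixth-day *fog-2(lf)*. The groups of *skn-1* overlapped in both comparisons with age and both between genotypes, with intervals of -0.07 to 0.41 for age in wild type and -0.18 to 0.30 for genotype on the first day. Without library 1 of sixth-day wild type, the lowest of its group, *skn-1* was called higher with age (log2 0.30, adjusted p = 0.015).

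Genes listed upstream of DAF-16, some of the insulin pathway and others such as *hcf-1*, *rle-1* and *cst-1*, moved both ways. Of 19 genes listed upstream of DAF-16, 4 rose and 7 fell with age in wild type, but with library totals 13 rose and 1 fell, and without library 3 of sixth-day wild type 2 rose. Among all genes tested, 23.4% rose and 25.4% fell in wild type with TMM factors, and 18.1% and 21.1% in *fog-2(lf)*. Between genotypes 7.74% were higher and 10.6% lower in *fog-2(lf)* on the first day, and 9.85% and 10.5% on the sixth. Each list count below is to be read beside these shares, and no list was tested as a set. *sgk-1*, a kinase of the pathway, fell from 36.2 ± 10.5 to 13.3 ± 1.46 CPM (log2 -1.44, SE 0.20, adjusted p = 3e-04) and was lower in first-day *fog-2(lf)* (14.3 ± 1.86 CPM, log2 -1.34, adjusted p = 0.0049). *cst-1*, a Hippo-type kinase reported to act on DAF-16, rose from 18.7 ± 1.53 to 29.9 ± 3.35 CPM with age in wild type (log2 0.68, adjusted p = 0.0020). *pdk-1*, the kinase above AKT, was higher in *fog-2(lf)* on the first day (50.5 ± 8.16 against 34.5 ± 6.00 CPM, adjusted p = 0.029).

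Genes that are known to be raised by DAF-16 moved both ways. Of 17 tested, 7 rose and 4 fell with age in wild type (median log2 fold change 0.19, against -0.00 for all genes), and 6 rose and 3 fell in *fog-2(lf)* (median 0.36, against -0.03). *dod-6* rose from 6.49 ± 3.64 to 75.6 ± 31.9 CPM (log2 3.55, SE 0.51, adjusted p = 0.00035) and *lys-7*, a lysozyme, from 149 ± 126 to 897 ± 202 CPM (log2 2.59, adjusted p = 0.0040) in wild type. Between genotypes on the first day *sod-3*, the mitochondrial manganese superoxide dismutase, was higher in *fog-2(lf)* (6.55 ± 2.26 against 2.88 ± 0.50 CPM, adjusted p = 0.047). The ferritin *ftn-1* was higher there too (24.5 ± 3.57 against 12.1 ± 4.38 CPM, adjusted p = 0.065). In that comparison 3 of the 17 were higher and 1 lower, against 7.74% and 10.6% of all genes. The count of higher genes fell by more than 1.5 times, to 0 at the lowest, whichever of the 3 first-day *fog-2(lf)* libraries was left out.

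*pqm-1* (F40F8.7, chromosome II, 11150391 to 11152595, minus strand) set first-day wild type apart. Its levels were 64.4, 28.6 and 73.7 CPM in first-day wild type and 15.4, 30.7 and 32 in sixth-day wild type. In *fog-2(lf)* they were 20.1, 13.8 and 17.9 CPM on the first day and 27.3, 25.1 and 26.2 on the sixth. Libraries 1 and 3 of first-day wild type were above all others, and library 2 of that group, the one that stood apart, lay among the sixth-day libraries.

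*pqm-1* fell with age in wild type (log2 -1.09, SE 0.33, adjusted p = 0.022), although the groups overlapped through library 2. It was lower in first-day *fog-2(lf)* as well (log2 -1.68, SE 0.34, adjusted p = 0.015), with no overlap. In *fog-2(lf)* its value with age was 0.60 (SE 0.33, adjusted p = 0.20), with no overlap but no call. It was called there when only the *fog-2(lf)* libraries were fitted (adjusted p = 0.015) and without library 2 of first-day wild type (adjusted p = 0.068). The difference between the 2 changes with age was 1.69 (SE 0.47, adjusted p = 0.051). Without library 2 of first-day wild type the 3 called values were -1.41, -2.0 and 2.01 (adjusted p = 0.0017, 0.00074 and 0.0067). Without library 3 of first-day *fog-2(lf)* or library 1 of sixth-day *fog-2(lf)* the difference was no longer called (highest adjusted p 0.11).

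The genes listed with PQM-1 are 6 vitellogenins and the *dod* genes, which are regulated downstream of the insulin receptor. Of 11 tested, 8 fell and 1 rose with age in wild type (median log2 -2.75), against 25.4% and 23.4% of all genes. *vit-1* fell from 8340 ± 1170 to 75.2 ± 44.0 CPM (log2 -6.79, SE 0.57, adjusted p = 1.5e-05) and *vit-3* from 13700 ± 4490 to 172 ± 108 CPM (log2 -6.31, SE 0.76, adjusted p = 0.00013). Both encode yolk proteins, which the intestine makes. On the first day 6 of the 11 were lower in *fog-2(lf)* (10.6% of all genes), among them *vit-2* (12600 ± 2370 against 36600 ± 16700 CPM, adjusted p = 0.014). That count lay between 2 and 7 when 1 library was left out, moving by more than 1.5 times without any library of first-day *fog-2(lf)* or without library 1 or 3 of first-day wild type. The 8 intestine markers summed to 2290 to 3360 CPM in first-day wild type, 218 to 344 in sixth-day wild type, 640 to 1040 in first-day *fog-2(lf)* and 207 to 210 in sixth-day *fog-2(lf)*. Markers of other tissues also moved with age. The 5 hypodermis markers summed to 307 to 1310 CPM in first-day and 14.6 to 21 in sixth-day wild type, and to 555 to 1370 and 18.8 to 26.6 in *fog-2(lf)*. The 6 body muscle markers summed to 1450 to 2370 CPM in first-day and 434 to 557 in sixth-day wild type, and to 2220 to 3880 and 354 to 458 in *fog-2(lf)*. The 9 neuron markers summed to between 310 and 421 CPM in the 12 libraries. In *fog-2(lf)* the summed intestine markers were lower on the sixth day in every library. *pqm-1* was higher there in every library, a change that was not called (edgeR, adjusted p = 0.20). The part of these tissues in the changes of *pqm-1* and of the other factors was not tested.

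*pha-4* (F38A6.1, chromosome V, 20753052 to 20760317, plus strand) rose in both genotypes. It had 3.31, 1.99 and 3.22 CPM in first-day wild type and 9.42, 8.76 and 13.9 in sixth-day wild type. In *fog-2(lf)* it had 2.06, 1.47 and 1.93 CPM on the first day and 2.43, 3.90 and 4.98 on the sixth. Every sixth-day library was above every first-day library of its genotype, and every sixth-day wild-type library was above every sixth-day *fog-2(lf)* library.

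The rise of *pha-4* was 3.77-fold in wild type (log2 1.92, SE 0.31, adjusted p = 0.00075) and 2.08-fold in *fog-2(lf)* (log2 1.06, SE 0.31, adjusted p = 0.025). The second call was lost without library 3 of sixth-day *fog-2(lf)* (adjusted p = 0.11). On the sixth day *fog-2(lf)* had less (log2 -1.50, SE 0.30, adjusted p = 0.014). The difference between the 2 rises was -0.86 (SE 0.44, 95% interval -1.81 to 0.10, adjusted p = 0.24), and it was called with limma on TPM (-1.16, adjusted p = 0.051).

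Of 4 pharynx genes under PHA-4 that were tested, 0 rose and 0 fell with age in wild type, and 0 rose and 2 fell in *fog-2(lf)*. The wild-type count turned on 1 library: without library 2 of first-day wild type all 4 rose. The 2 that fell ranged from 0 to 3 with 1 library left out, moving by more than 1.5 times without library 2 or 3 of first-day or any library of sixth-day *fog-2(lf)*. Of 7 autophagy genes listed under PHA-4, 0 rose and 1 fell in wild type: *lgg-2*, which acts in autophagosome maturation, from 162 ± 31.6 to 132 ± 9.61 CPM (log2 -0.29, adjusted p = 0.097). That call was lost with RLE factors and with library totals, and the count ran from 0 to 2 with 1 library left out. On the first day 1 of the 7 was higher in *fog-2(lf)* and 2 were lower, with 0 to 3 lower when 1 library was left out. *lgg-2* and *bec-1*, the worm beclin, were those lower (log2 -0.50 and -0.46, adjusted p = 0.037 and 0.083). Of 13 other forkhead genes tested, 6 rose and 0 fell with age in wild type, led by *fkh-8* (0.216 ± 0.260 to 4.10 ± 0.677 CPM, log2 4.08, adjusted p = 0.00054) and *let-381* (0.861 ± 0.253 to 2.83 ± 0.481 CPM, log2 1.70, adjusted p = 0.0020). In *fog-2(lf)* 3 of the 13 rose and 1 fell. Among all genes tested, 23.4% rose and 25.4% fell in wild type, and 18.1% and 21.1% in *fog-2(lf)*.

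*hif-1* (F38A6.3, chromosome V, 20780407 to 20785260, plus strand) fell in both genotypes. It had 110, 118 and 159 CPM in first-day wild type and 66.1, 73.7 and 68.7 in sixth-day wild type. In *fog-2(lf)* it had 94.6, 104.05 and 98.4 CPM on the first day and 66.2, 72.0 and 69.6 on the sixth. No sixth-day library reached a first-day library, and the sixth-day libraries of the 2 genotypes overlapped.

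The change of *hif-1* with age was -0.89 in wild type (SE 0.12, adjusted p = 0.00022) and -0.52 in *fog-2(lf)* (SE 0.12, adjusted p = 0.0070), and both calls held with each of the 12 libraries left out in turn. The size in wild type depended on the scaling, at -0.46 with library totals and -0.41 with limma on log2(TPM + 0.5). First-day *fog-2(lf)* was below first-day wild type (log2 -0.38, SE 0.12, adjusted p = 0.061). That call was lost without library 3 of first-day wild type, without library 1 or 3 of first-day *fog-2(lf)*, with library totals (adjusted p = 0.15), with limma on TPM (adjusted p = 0.29) and when only first-day libraries were fitted (adjusted p = 0.20). On the sixth day the difference was -0.00 (95% interval -0.26 to 0.25). The difference between the changes with age was 0.38 (SE 0.17, adjusted p = 0.17), and -0.01 with limma on TPM.

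Of 7 genes tested that act with or on HIF-1, including the hydroxylase *egl-9* and the ubiquitin ligase subunit *vhl-1*, 0 rose and 2 fell with age in wild type: *cysl-1*, which inhibits EGL-9, from 16.7 ± 1.12 to 9.79 ± 0.912 CPM (log2 -0.77, adjusted p = 0.0056) and *elc-1*, an elongin C, from 74.4 ± 4.14 to 49.5 ± 2.89 CPM (log2 -0.59, adjusted p = 0.00038). The fallen genes numbered 0 with library totals and up to 4 without library 2 of either wild-type group. Of 9 genes listed as HIF-1 targets, 1 rose and 1 fell in wild type (median log2 0.23). *ftn-1*, which HIF-1 is known to repress, rose from 12.1 ± 4.38 to 45 ± 13.6 CPM (log2 1.90, adjusted p = 0.0010). *cysl-2*, a target that HIF-1 raises, fell from 61.9 ± 26.7 to 17.7 ± 9.59 CPM (log2 -1.81, adjusted p = 0.0048). It was also lower in first-day *fog-2(lf)* (26.4 ± 3.69 CPM, adjusted p = 0.073), as was *oac-54* (0.165 ± 0.138 against 1.21 ± 0.476 CPM, adjusted p = 0.021). Of the 9 targets, 2 were lower and 2 higher in that comparison, *ftn-1* among the higher, against 10.6% and 7.74% of all genes.

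*hsf-1* (Y53C10A.12, chromosome I, 11953507 to 11963085, minus strand) had 132, 137 and 132 CPM in first-day and 124, 136 and 139 in sixth-day wild type. It had 144, 165 and 155 CPM in first-day and 143, 160 and 144 in sixth-day *fog-2(lf)*. All 6 *fog-2(lf)* libraries were above all 6 wild-type libraries, by a small margin. The difference was 0.21 on the first day (SE 0.07, adjusted p = 0.095) and 0.17 on the sixth (95% interval 0.00 to 0.33, adjusted p = 0.16). The first-day call was lost without 9 of the 12 libraries in turn (over all 12 the adjusted p was between 0.086 and 0.27), and with RLE factors, with no filter on low counts, or with only the libraries compared (highest adjusted p 0.28). With age *hsf-1* was not called in either genotype (log2 -0.01, which turned to 0.41 and was called with library totals, and -0.05).

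Of 15 heat shock genes under HSF-1, 5 fell and 1 rose with age in wild type, and 4 fell and 1 rose in *fog-2(lf)*. The 4 became up to 7 without library 2 of first-day wild type or library 2 of first-day *fog-2(lf)*. *hsp-1*, an abundant HSP70, had means of 3890 and 2300 CPM in first-day and sixth-day wild type (log2 -0.75, SE 0.11, adjusted p = 0.00032), and *hsp-90* went from 3920 ± 371 to 2580 ± 133 CPM (log2 -0.60, SE 0.11, adjusted p = 0.0013). HSP-90 is a chaperone that also holds HSF-1 inactive, and the gene is counted upstream of HSF-1 as well. The 1 that rose was *hsp-12.6*, a small heat shock protein (3.10 ± 2.29 to 13.2 ± 2.88 CPM, log2 2.11, adjusted p = 0.0039), which is also counted under DAF-16. With library totals the count of fallen genes in wild type was 3.

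On the sixth day 6 of the 15 were lower in *fog-2(lf)*, against 10.5% of all genes. They were *hsp-12.6* and 5 small heat shock genes of the *hsp-16* family, which are named here after their values were seen. *hsp-16.11* had 19.5 CPM in *fog-2(lf)* and 206 CPM in wild type as group means (log2 -3.40, SE 0.95, adjusted p = 0.041). The pair *hsp-16.48* and *hsp-16.49* had equal fitted values (log2 -2.50, SE 0.85). They are near-identical copies between which reads cannot be divided, so their values count as 1 uncertain measurement. Both are among the 6, which are therefore not 6 independent measurements. Whether reads could be divided among the other *hsp-16* genes, *hsp-16.11* included, was not examined. The count of 6 ran from 0 to 8 when 1 library was left out. It moved by more than 1.5 times without library 2 or 3 of sixth-day wild type or without any library of sixth-day *fog-2(lf)*.

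Of 13 detoxification genes under SKN-1, most of them glutathione S-transferases, 7 fell and 0 rose with age in wild type and 8 fell and 0 rose in *fog-2(lf)* (median log2 -0.59 and -0.74, against -0.00 and -0.03 for all genes). The count in *fog-2(lf)* lay between 5 and 8 when 1 library was left out, and was lowest without library 3 of first-day or library 2 of sixth-day *fog-2(lf)*. *gst-10* fell from 28.9 ± 4.46 to 5.43 ± 2.96 CPM in wild type (log2 -2.41, SE 0.51, adjusted p = 0.0033) and *gst-5* from 34.4 ± 2.84 to 7.44 ± 1.04 CPM (log2 -2.21, SE 0.33, adjusted p = 0.00042).

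Between genotypes on the first day *gst-4*, the usual reporter gene of SKN-1, was higher in *fog-2(lf)* (84.5 ± 13.8 against 30.6 ± 7.92 CPM, log2 1.47, SE 0.29, adjusted p = 0.014). *dhs-8* was lower there (0.757 ± 0.150 against 2.22 ± 1.70 CPM, adjusted p = 0.073), and no other of the 13 passed. Of 10 genes that act on SKN-1, 1 rose and 1 fell with age in wild type: *wdr-23*, which targets SKN-1 for degradation (log2 0.17, adjusted p = 0.081), and *ogt-1*, an O-GlcNAc transferase (log2 -0.39, adjusted p = 0.023).

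**Figure D4:**
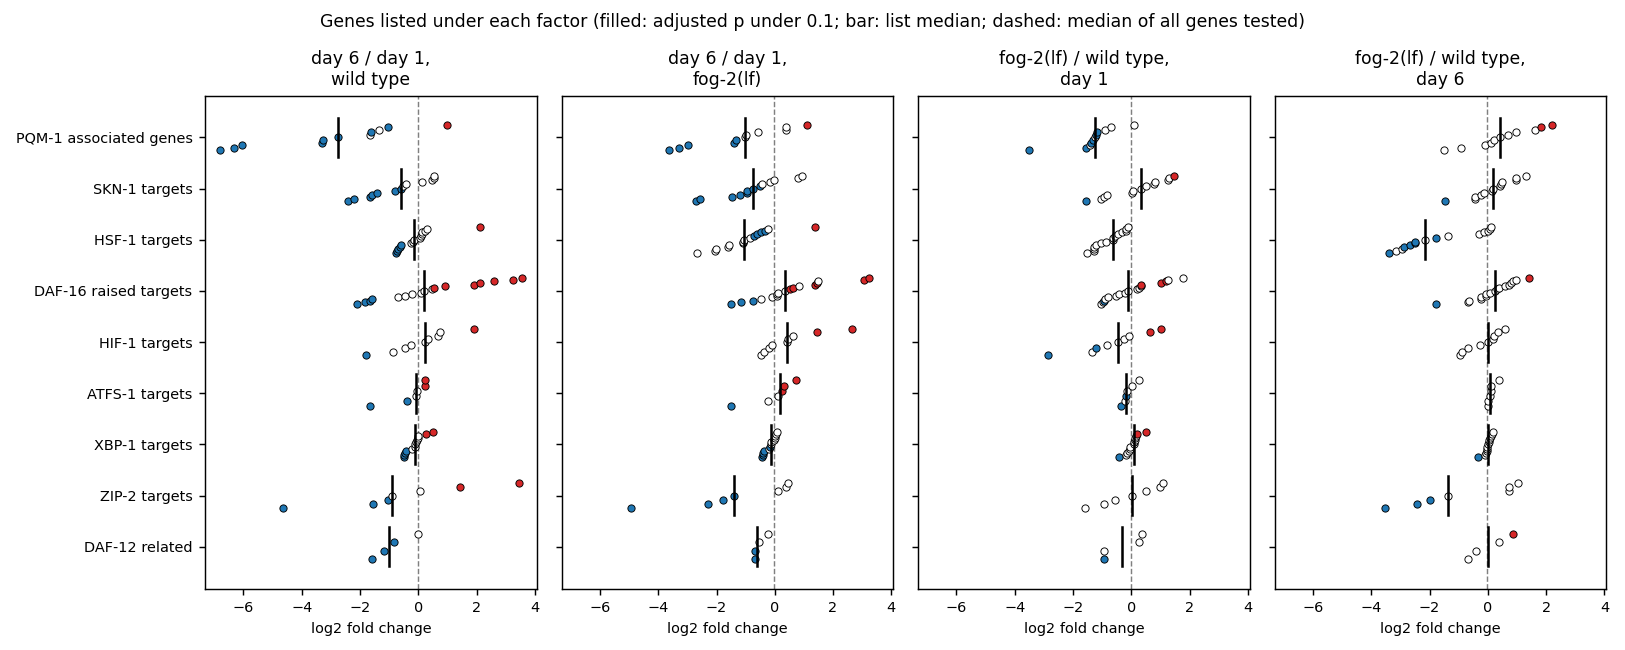
Log2 fold change of every tested gene in 9 lists of genes named under the factors, in 4 comparisons (edgeR). Filled red and blue points passed an adjusted p of 0.1 as higher and lower, open points did not, black bars are list medians and the dashed line is the median of all genes tested. PQM-1 associated genes and SKN-1 targets have medians below 0 in both comparisons with age (medians -2.75 and -1.03, and -0.59 and -0.74).

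*atfs-1* (ZC376.7, chromosome V, 14193663 to 14197700, plus strand) had 133, 116 and 116 CPM in first-day wild type and 87.0, 107 and 105 in sixth-day wild type. In *fog-2(lf)* it had 109, 133 and 111 CPM on the first day and 110, 109 and 106 on the sixth. The wild-type groups did not overlap. *atfs-1* fell there with age (log2 -0.29, SE 0.10, adjusted p = 0.040). The call was lost without library 1 of first-day or library 1 of sixth-day wild type (highest adjusted p 0.15), and the sign turned with library totals (0.13, adjusted p = 0.32). Of the 5 genes upstream of ATFS-1, 0 rose and 3 fell in wild type, among them *haf-1*, a mitochondrial peptide exporter (11.6 ± 1.97 to 5.71 ± 0.408 CPM, log2 -1.02, adjusted p = 0.00043) and *dve-1*, a homeobox protein (12.8 ± 2.60 to 7.39 ± 0.493 CPM, log2 -0.79, adjusted p = 0.0078). With library totals the count of fallen genes was 1 of the 5.

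Of the 6 genes listed as ATFS-1 targets, 2 rose and 2 fell with age in wild type, and with library totals 4 rose and 1 fell. *hsp-60*, the mitochondrial chaperonin, fell from 894 ± 203 to 683 ± 22 CPM (log2 -0.39, adjusted p = 0.031), and *gpd-2*, a glyceraldehyde phosphate dehydrogenase that is also counted under DAF-16, fell from 289 ± 16 to 92.7 ± 19.8 CPM (log2 -1.64, adjusted p = 2.2e-05). Between genotypes on the first day, *timm-23* and *timm-17B.1*, of the mitochondrial import channel, were lower in *fog-2(lf)* (log2 -0.37 and -0.19, adjusted p = 0.0083 and 0.096), and 0 of the 6 were higher.

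*xbp-1* (R74.3, chromosome III, 4193809 to 4195358, plus strand) was lowest in first-day *fog-2(lf)*. It had 317, 323 and 394 CPM in first-day and 303, 315 and 318 in sixth-day wild type, and 227, 258 and 267 in first-day and 265, 291 and 286 in sixth-day *fog-2(lf)*. On the first day the genotypes did not overlap (log2 -0.46, SE 0.09, adjusted p = 0.016). That call held without each of the 12 libraries in turn (highest adjusted p 0.051) but not when only the 6 first-day libraries were fitted (adjusted p = 0.11). On the sixth day the value was -0.15 (adjusted p = 0.29), which was called with library totals (-0.30, adjusted p = 0.043) and with limma on TPM (-0.39, adjusted p = 0.032). With age *xbp-1* was not called in either genotype (log2 -0.14, which turned to 0.29 with library totals, and 0.16), and sixth-day wild type was above first-day *fog-2(lf)* (log2 0.31, SE 0.09, adjusted p = 0.022).

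Of the 13 chaperones and folding enzymes under XBP-1, 4 fell and 2 rose with age in wild type and 5 fell and 0 rose in *fog-2(lf)*. With library totals the fallen genes numbered 0 and 2, and the 5 became 3 at the lowest without library 1 or 3 of either *fog-2(lf)* group. *hsp-4*, the endoplasmic reticulum BiP that reports this response, had 535 ± 46.7, 379 ± 23.6, 397 ± 20.6 and 403 ± 22.8 CPM in first-day and sixth-day wild type and first-day and sixth-day *fog-2(lf)*. Its mean was highest in first-day wild type, by age (log2 -0.50, SE 0.08, adjusted p = 0.00098) and by genotype (log2 -0.43, SE 0.08, adjusted p = 0.013). *pdi-2*, a protein disulfide isomerase, fell with age in wild type (711 ± 80.0 to 505 ± 33.3 CPM, log2 -0.49, adjusted p = 0.019), and *dnj-27* was higher in first-day *fog-2(lf)* (log2 0.51, adjusted p = 0.017). Upstream, *ire-1*, the nuclease that splices the *xbp-1* mRNA, was higher in first-day *fog-2(lf)* (191 ± 9.93 against 154 ± 5.18 CPM, adjusted p = 0.032) and *pek-1*, a parallel sensor kinase, was lower (70.1 ± 6.16 against 105 ± 21.4 CPM, adjusted p = 0.038). With age in wild type *pek-1* fell and *atf-6* rose (log2 -0.56 and 0.46, adjusted p = 0.015 and 0.019).

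*daf-12* (F11A1.3, chromosome X, 10635908 to 10666875, plus strand) fell with age in *fog-2(lf)* and was not called in wild type. It had 12, 12.3 and 12.1 CPM in first-day and 7.95, 8.82 and 8.89 in sixth-day *fog-2(lf)*. In wild type it had 11.2, 12.3 and 15.5 CPM on the first day and 12.7, 16.6 and 16.8 on the sixth. The 3 sixth-day *fog-2(lf)* libraries were the lowest of all 12.

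*daf-12* fell in *fog-2(lf)* (log2 -0.50, SE 0.16, adjusted p = 0.032) and was 0.24 with age in wild type (95% interval -0.10 to 0.58, adjusted p = 0.25). The fall was not called with limma on TPM (-0.31, adjusted p = 0.19), and without library 3 of first-day wild type a rise was called in wild type (0.38, adjusted p = 0.080). On the sixth day it was lower in *fog-2(lf)* (log2 -0.84, SE 0.16, adjusted p = 0.011), and this call held without each of the 12 libraries. The difference between the changes with age was -0.74 (SE 0.22, adjusted p = 0.064). That last call was lost without 7 of the 12 libraries in turn (over all 12 the adjusted p was between 0.032 and 0.14): library 1 of first-day wild type, 2 and 3 of sixth-day wild type, 1 and 3 of first-day *fog-2(lf)*, and 1 and 2 of sixth-day *fog-2(lf)*.

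The genes listed upstream of DAF-12 split. They include genes that make its ligand, the dafachronic acids, and others such as *din-1*, *tcer-1* and *kri-1*. Of 9 tested, 3 rose and 2 fell with age in wild type. *daf-36*, the Rieske oxygenase of the first step, fell from 21.4 ± 8.36 to 1.76 ± 0.204 CPM (log2 -3.60, SE 0.38, adjusted p = 5.7e-05) and was 7.83 ± 1.15 CPM in first-day *fog-2(lf)* (log2 -1.45, adjusted p = 0.027). *strm-1*, a methyltransferase acting on the sterols, rose from 2.65 ± 0.446 to 7.14 ± 0.988 CPM in wild type (log2 1.42, adjusted p = 0.00028). *ncr-1*, a Niemann-Pick sterol transporter, was lower in first-day *fog-2(lf)* (4.94 ± 0.261 against 26.8 ± 14.6 CPM, log2 -2.44, adjusted p = 0.0074). Of 4 genes listed as related to DAF-12, 3 fell in wild type, among them *fard-1*, a fatty acyl-CoA reductase (43.8 ± 3.29 to 14.7 ± 2.22 CPM, adjusted p = 2e-04), which was also lower in first-day *fog-2(lf)* (22.7 ± 2.96 CPM, adjusted p = 0.018), and *cdr-6* (40.8 ± 9.40 to 18 ± 0.449 CPM, adjusted p = 0.00076).

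*zip-2* (K02F3.4, chromosome III, 832982 to 835814, plus strand) separated the genotypes at both ages. It had 150, 158 and 201 CPM in first-day and 152.02, 159 and 142.5 in sixth-day wild type. It had 103.53, 102 and 135.5 CPM in first-day and 63.6, 87.5 and 82.3 in sixth-day *fog-2(lf)*. All 6 *fog-2(lf)* libraries were below all 6 wild-type libraries, and within *fog-2(lf)* every sixth-day library was below every first-day library.

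*zip-2* was lower in *fog-2(lf)* on the first day (log2 -0.58, SE 0.15, adjusted p = 0.035) and lower again on the sixth (log2 -0.96, SE 0.15, adjusted p = 0.0063). The first call was lost without library 1 or 2 of first-day *fog-2(lf)* and when only first-day libraries were fitted (adjusted p = 0.11, 0.10 and 0.11). It fell with age in *fog-2(lf)* (log2 -0.55, SE 0.15, adjusted p = 0.018). In wild type the value was -0.17 (95% interval -0.49 to 0.16, adjusted p = 0.41), which turned to 0.26 with library totals (adjusted p = 0.12) and 0.25 with limma on log2(TPM + 0.5). The difference between the 2 changes was not called (-0.38, adjusted p = 0.28) except with library totals (-0.67, adjusted p = 0.043) and with limma on TPM (-0.74, adjusted p = 0.047).

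Of the 3 bZIP partners listed with ZIP-2, *cebp-1* rose with age in wild type (27.9 ± 11 to 63.7 ± 12.1 CPM, log2 1.19, adjusted p = 0.0068) and was lower in first-day *fog-2(lf)* (15.3 ± 1.47 CPM, log2 -0.86, adjusted p = 0.079). Of 7 genes of the infection response listed under ZIP-2, 2 rose and 3 fell with age in wild type. *irg-4* fell from 63.4 ± 20.8 to 2.57 ± 2.52 CPM (log2 -4.63, SE 0.80, adjusted p = 0.0010), and F11D11.3 rose from 0.344 ± 0.458 to 3.37 ± 0.885 CPM (log2 3.45, SE 1.01, adjusted p = 0.018). The 3 that fell became 1 at the lowest when 1 library was left out, and moved by more than 1.5 times without library 3 of first-day or library 2 or 3 of sixth-day wild type. On the first day 0 were higher and 0 lower in *fog-2(lf)*. On the sixth day 0 of the 7 were higher and 3 lower in *fog-2(lf)* (median log2 -1.36), against 9.85% and 10.5% of all genes. With age in *fog-2(lf)* 0 rose and 4 fell (median log2 -1.38), against 18.1% and 21.1% of all genes.

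SKN-1, ATFS-1, XBP-1 and ZIP-2 are related to the bZIP family. Of 24 other members tested, 10 rose and 4 fell with age in wild type (23.4% and 25.4% of all genes), and with library totals 16 rose and 2 fell. *zip-8* rose from 1.57 ± 0.958 to 12.4 ± 2.66 CPM (log2 3.02, adjusted p = 0.0018) and *atf-2* from 0.814 ± 0.187 to 6.42 ± 1.12 CPM (log2 2.98, adjusted p = 3.3e-05). *zip-8* and *zip-7* were higher in first-day *fog-2(lf)* (log2 2.75 and 1.75, adjusted p = 0.017 and 0.016). They were the only 2 of the 24 called higher there, and 4 were called lower, against 7.74% and 10.6% of all genes. With age in *fog-2(lf)* 5 of the 24 rose and 6 fell, against 18.1% and 21.1% of all genes.

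The files give isoforms, and 37 isoforms of the 10 genes passed the filter. With age, 5 of the 37 were called for wild type and 7 for *fog-2(lf)*, against 30.9% and 26.2% of the 21695 isoforms tested. Between genotypes 5 were called on the first day (7.61% of all) and 2 on the sixth (6.91%). In the difference between the changes with age 1 was called (4.16% of all), and between sixth-day wild type and first-day *fog-2(lf)* 8 were (28.7%). The counts are estimates: kallisto divides reads that fit several isoforms among them, so isoforms that share most of their sequence are uncertain.

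Isoform F38A6.3d of *hif-1* was called lower in both comparisons with age. In the WBcel235 annotation it has a segment of 203 bases (chromosome V, 20783326 to 20783528) that isoform F38A6.3a lacks. Its share of the TPM of *hif-1* was 23.5%, 24.3% and 27.9% in first-day wild type and 10.9%, 12.7% and 12.4% in sixth-day wild type. In *fog-2(lf)* it was 18.6%, 21.6% and 21.3% on the first day and 12.8%, 13.6% and 11.7% on the sixth. The share was lower in every sixth-day library, and on the first day lower in *fog-2(lf)*, with no overlap in any of the 3 comparisons (exact two-sided permutation p = 0.1 each, the smallest that 3 against 3 allow). Its estimated counts fell with age by log2 -1.89 in wild type (SE 0.20, adjusted p = 0.00034) and -1.16 in *fog-2(lf)* (SE 0.20, adjusted p = 0.0040), where those of the whole gene fell by -0.89 and -0.52. The isoforms of the annotation and of the files differ somewhat in length (2856 and 2912 bases for F38A6.3d).

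For *pha-4* the longest isoform, F38A6.1a, which in the annotation starts at 20753052 and upstream of F38A6.1b and F38A6.1c, took 72.3%, 54.2% and 66.0% of the TPM of the gene in first-day wild type and 7.38%, 16% and 22.6% in sixth-day wild type. In *fog-2(lf)* it took 74.2%, 78.8% and 84.8% on the first day and 17.4%, 0% and 39.2% on the sixth. The groups did not overlap in either genotype (exact two-sided permutation p = 0.1). These shares rest on few reads: in 8 of the 12 libraries the estimated count of F38A6.1a was a whole multiple (within 0.01 of a step) of 12.7 counts, from 0 to 9 steps. With F38A6.1b and F38A6.1c taken as 1, an alternative chosen after the data were seen, their sum rose with age by log2 3.34 in wild type (SE 0.35, adjusted p = 0.00033) and 3.14 in *fog-2(lf)* (SE 0.36, adjusted p = 6e-04).

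For *daf-16*, whose sum over isoforms was not called, single isoforms were. R13H8.1b.1 took 10.6%, 7.89% and 7.84% of the TPM of the gene in first-day wild type and 3.17%, 2.93% and 4.94% in sixth-day wild type, 7.02%, 5.27% and 8.22% in first-day *fog-2(lf)* and 2.79%, 2.51% and 2.46% in sixth-day *fog-2(lf)*. Its estimated counts fell with age in both genotypes (log2 -1.13 and -1.43, SE 0.26 in each, adjusted p = 0.012 and 0.0054), and sixth-day libraries were below first-day libraries throughout. R13H8.1h took 0.0269%, 0.0292% and 0.0411% of the gene in first-day wild type, with 1.05, 1.48 and 1.04 estimated counts, and between 2.88% and 21.9% in the other 9 libraries, with 135 to 916 estimated counts. R13H8.1d, which shares 1464 bases with R13H8.1h in the annotation, took 15.8%, 15.2% and 5.70% in first-day wild type, and 0.0452% to 0.315% in first-day *fog-2(lf)*. A further isoform, R13H8.1f, shares 1554 bases with R13H8.1h and 1920 with R13H8.1d. Whether reads were also divided differently with R13H8.1f was not tested.

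R13H8.1d and R13H8.1h together took 15.8%, 15.3% and 5.75% of *daf-16* in first-day wild type, 3.28%, 26.3% and 15.6% in sixth-day wild type, 14.5%, 14.4% and 13.4% in first-day *fog-2(lf)* and 30.2%, 6.50% and 13% in sixth-day *fog-2(lf)*. The sums of the 4 groups overlapped, and in a fit of the sum, chosen after the data were seen, no comparison was called (lowest adjusted p 0.66). Fitted by itself, R13H8.1h was called higher for age in wild type (adjusted p = 0.00041) and for genotype on the first day (adjusted p = 0.0031). R13H8.1d by itself was called lower for genotype on the first day (log2 -6.14, adjusted p = 0.083) and higher for age in *fog-2(lf)* (log2 4.95, adjusted p = 0.064). R13H8.1e was called higher for age in wild type (log2 0.35, adjusted p = 0.055), a call lost with no filter on low counts.

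**Figure D5:**
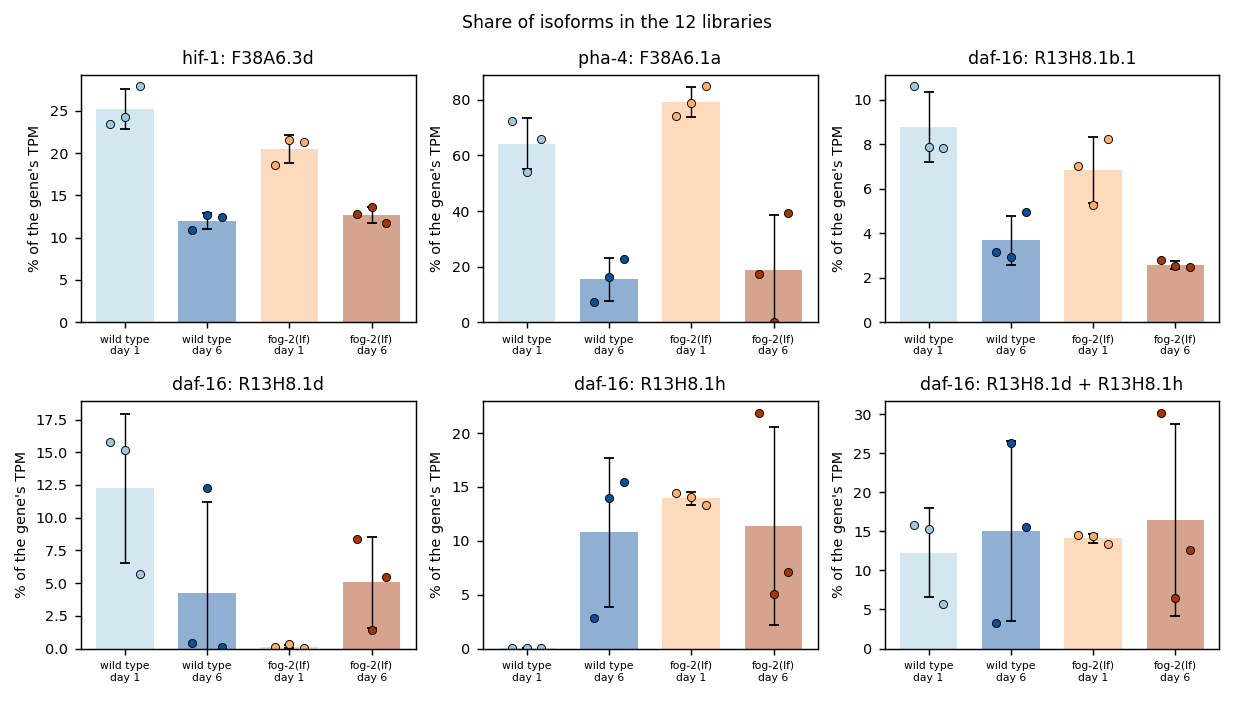
Share of the TPM of the gene, in percent on linear axes from 0, taken by isoforms of *hif-1*, *pha-4* and *daf-16* in the 12 libraries; points are libraries, bars are means of 3 and error bars are 1 SD. The shares of F38A6.3d, F38A6.1a and R13H8.1b.1 are lower on the sixth day in both genotypes. R13H8.1h is near 0 in first-day wild type only, and its sum with R13H8.1d overlaps between all 4 groups.

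The genes whose profile over the 12 libraries was most like that of each called factor were found by the smallest root mean square difference in centred log2 CPM, among tested genes whose mean over the libraries reached 5 CPM. Nearest to *hif-1* were *alh-1* (0.105, where *hif-1* itself varied with an SD of 0.408) and *nhr-70* (0.135). Nearest to *pqm-1* were C06B3.6 (0.171, SD of *pqm-1* 0.730) and *lec-8* (0.217), with C06B3.6 at mean CPM of 117 and 45.8 in first-day and sixth-day wild type and 33.8 and 53.9 in first-day and sixth-day *fog-2(lf)*. For *pha-4* they were R06C1.6 (0.268) and F19C7.2 (0.286), and for *zip-2* F38E9.1 (0.129) and *lin-1* (0.155). For *daf-12* they were Y92H12A.2 (0.132) and *unc-33* (0.141), and for *xbp-1* R02F2.1 (0.077) and *dnj-20* (0.082). For *hsf-1* they were *fem-2* (0.049) and *tsp-12* (0.058), and for *atfs-1* F13H10.3 (0.071) and F37A4.1 (0.077). These are descriptions over libraries that share their groups and depth, and carry no test.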

How the data were processed

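Libraries were made by the authors with the NEBNext Ultra kit, sequenced as single reads and quantified with kallisto against WBcel235 transcripts, and the submitters' processing notes also name sleuth. The deposited files give estimated counts and TPM for each isoform. Both were summed over the isoforms of a gene, and estimated counts were rounded. The fragment length implied by the deposited effective lengths, which are 259 bases below the isoform lengths, is not the one in the study's methods, and TPM and the division of reads among isoforms depend on it.

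Counts were fitted with edgeR 4.0.16 (filterByExpr, TMM factors, glmQLFit and glmQLFTest) over all 12 libraries with age, genotype and their interaction, and p-values were adjusted by Benjamini-Hochberg over all genes or isoforms tested. SE is the standard error of the log2 fold change. Isoform shares were compared by exact permutation tests. The edgeR p-values set a difference against the spread between libraries within groups, taken as 1 value per gene over all 4 groups. A group with a wider spread of its own has no separate value. With only the first-day libraries fitted, the genes called between genotypes went from 2674 to 595.

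Alternatives were DESeq2 1.42.0, RLE factors, library totals, no filter on low counts, limma 3.58.1 on log2(TPM + 0.5), log2(TPM + 0.1) and log2(TPM + 1), an adjusted p of 0.05, only the libraries compared, the replicate number as a block, and each library left out. The 10 factors and all gene lists were chosen with earlier results of these data known. From each list up to 2 called genes with the largest change and a mean of at least 1 CPM are named, for age in wild type and for genotype on the first day, and the 2 nearest profiles of each called factor. Promoter and protein sequences were not analysed here.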

Additional observations from a re-analysis of the deposited data

Results flagged for a closer look

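The change with age differed between genotypes for *pqm-1*, by a test of the difference itself: 1.69 on the log2 scale (*fog-2(lf)* minus wild type, edgeR, adjusted p = 0.051), since *pqm-1* fell in wild type and its value in *fog-2(lf)* was 0.60, which was not called.

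It differed for *daf-12* by -0.74 (edgeR, adjusted p = 0.064): *daf-12* fell in *fog-2(lf)* and its value in wild type was 0.24, which was not called.

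It also differed for the *daf-16* isoform R13H8.1h, with a fitted value of -9.08 (edgeR, adjusted p = 0.023). First-day wild type held 1.04 to 1.48 estimated counts of this isoform per library, so the size depends on the prior count and is no bound. When its counts were summed with those of R13H8.1d, an alternative chosen after the data were seen, the value was -0.42 (SE 1.01, adjusted p = 0.88).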

How the results depend on the processing

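The number of factors called held within 1.5 times of the reported value in most settings, and the exceptions follow. For age in wild type (4 called, 1 higher) it was 8 with library totals and 7 with limma on TPM at each of the 3 pseudocounts, in both cases with 6 higher. For genotype on the first day (5 called) it was 3 at an adjusted p of 0.05 and 1 with only the libraries compared. For the difference between the changes with age (2 called) it was 5 with library totals, 4 with limma on TPM at each pseudocount, 1 with no filter on low counts and 0 at an adjusted p of 0.05. In that comparison edgeR gave 3 higher and 1 lower factor at an unadjusted p under 0.05, and DESeq2 called 2. Isoforms called for age in wild type (5) were 9 with library totals and 8 with the replicate block, and those for genotype on the first day (5) were 2 with no filter. With 1 library left out, called factors ranged from 3 to 7 for genotype on the first day, from 0 to 2 for the difference between the changes with age, and from 3 to 7 for sixth-day wild type against first-day *fog-2(lf)* (6). Called isoforms then ranged from 3 to 9 for age in *fog-2(lf)* (7), from 1 to 7 for genotype on the first day, from 1 to 3 for genotype on the sixth day (2), from 1 to 3 for the difference (1) and from 3 to 11 for sixth-day wild type against first-day *fog-2(lf)* (8).

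Signs turned with library totals and with limma on TPM. For age in wild type *hsf-1* was 0.41 with library totals and 0.39 at pseudocounts 0.5, 0.1 and 1, *atfs-1* 0.13 and 0.12, *xbp-1* 0.29 and 0.27, and *zip-2*, which was not called, 0.26 and 0.25. Other values that were not called turned as well. For sixth-day wild type against first-day *fog-2(lf)* *hsf-1* was 0.056 with library totals and 0.070, 0.070 and 0.069 with limma, *atfs-1* 0.037 with library totals and 0.054, 0.054 and 0.053 with limma, and the only isoform of *hsf-1* 0.056 with library totals. R13H8.1d turned to 0.47 for genotype on the first day when summed with R13H8.1h. The replicate numbers did not pair the libraries: same-numbered libraries of different groups had correlations of their deviations between -0.131 and 0.159, with 4 of 18 above 0.1. With the replicate block 4, 4, 5, 4, 2 and 7 factors were called over the 6 comparisons, where 4, 4, 5, 3, 2 and 6 were reported. The low levels of *pha-4* and *daf-12* and the isoform estimates are the values that depth limits most.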
